A study of Homo sapiens with 16 samples.

Results

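Calcium that enters a neuroblastoma cell is read out by a small set of enzymes, and the transcripts of 10 genes that encode them were followed here in SH-SY5Y cells, a human neuroblastoma cell line. The genes were PTK2B, CAMK1, CAMK2B, CAMK2D, CAMK2G, CAMK4, CAMKK1, CAMKK2, PPP3CA and PPP3CB, taken by symbol through their Ensembl identifiers. All 10 were found in both deposited tables, which each list 26410 genes, and all 10 passed the filter on low values in each comparison. RNA-seq covered 16 libraries in 4 groups of 4. The Scr groups came from clones Scr13 and Scr16, which were exposed to a scrambled guide RNA, and the KO groups from clones KO11 and KO28, which were exposed to a guide RNA against the calcium channel gene TRPM2. Cells of both genotypes had also received Cas9 and a donor vector with GFP and puromycin markers, and they were selected with puromycin before single-cell cloning. Each clone gave 2 untreated libraries and 2 libraries after 24 h of doxorubicin, an anthracycline that damages DNA. The dose was 0.3 µM in the sample labels, while the series text gives 3 µM. A group of 4 libraries therefore stands for 2 clones, and a difference between the genotypes cannot be told apart from a difference between those clones. Reads on genes ranged from 10481177 to 25086085 per library, with 93 to 2884 reads on a given one of the 10 genes.

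The enzymes form a branched relay. Calcium bound to calmodulin activates the CaMK kinases, and the upstream kinases CaMKK1 and CaMKK2 phosphorylate CaMKI and CaMKIV, while CaMKII activates itself within a multimeric holoenzyme. Calcineurin, the calcium-activated phosphatase, has its catalytic subunit encoded by PPP3CA, PPP3CB or PPP3CC. PPP3CC is not among the 10 genes. PYK2, the product of PTK2B, is a tyrosine kinase that responds to calcium and signals with SRC at adhesion sites. In neurons these enzymes link calcium entry to transcription factors such as CREB, NFAT and MEF2.

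The guide target is shown because it defines the genotype groups, with the adjacent PAM in capitals.
TRPM2 guide target: gaggaaagctggctcggagcAGG
The 20-base target was found in 5 of 8 annotated TRPM2 transcripts, within coding sequence on the plus strand at chr21:44353718-44353737 (GRCh38, GENCODE release 29). TRPM2 reads went against the labels in untreated cells. Untreated libraries labelled KO held 35 and 37 reads from clone KO11 and 21 and 30 from clone KO28, against 3, 2, 0 and 0 in the Scr libraries. In normalized CPM, reads scaled to the library's effective size, TRPM2 was at 1.41 to 2.23 in the libraries labelled KO. It was at 0 to 0.118 in those labelled Scr, which amounts to 1.47 (SE 0.27) on the log2 scale. TRPM2 met the filter of 1 CPM in at least 4 libraries only through the untreated libraries labelled KO. The test therefore depended on the difference it was to judge, and its p-value is not given. After doxorubicin TRPM2 held 19 and 29 reads in KO11, 21 and 11 in KO28, 1 and 1 in Scr13 and 14 and 6 in Scr16, so the groups overlapped (log2 fold change 0.69, SE 0.33, limma adjusted p = 0.249). Reads are summed over the whole gene, so they check nothing about the edited stretch, and they do not measure protein. The paper states that KO and control cells were authenticated by RT-PCR and Western blotting. The name "libraries labelled KO" is used for these samples throughout. The doxorubicin label could be checked with CDKN1A, the cell cycle inhibitor p21 that p53 induces. CDKN1A averaged 57.0 ± 15.2 CPM (SD, n = 4) in untreated and 337 ± 25.1 CPM (SD, n = 4) in treated Scr libraries, and 136 ± 16.5 CPM (SD, n = 4) and 736 ± 45.3 CPM (SD, n = 4) in those labelled KO. MDM2, the p53 antagonist, rose by 0.88 (SE 0.083) and 1.33 (SE 0.083) on the log2 scale with doxorubicin in Scr and in libraries labelled KO, with limma adjusted p-values of 6.9e-09 and 8.7e-13.

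The 10 genes differed widely in level when CPM were divided by the summed exon length. CAMK2D was the most abundant, at 18.9 ± 3.26 CPM per kb (SD over 16 libraries), and it exceeded every other gene of the set in each library. PPP3CB at 12.3 ± 1.24 CPM per kb, PPP3CA at 11.4 ± 1.07, CAMKK2 at 10.2 ± 0.97, CAMK2G at 9.93 ± 1.12 and CAMK1 at 9.35 ± 1.89 followed (SD over 16 libraries). The ranges of these 5 genes overlapped, and neighbours in this order kept it in 8 to 13 of 16 libraries. CAMK4, a kinase best known from neurons and lymphocytes, was lower at 4.82 ± 0.70 CPM per kb, below CAMK1 and above CAMK2B in every library. CAMK2B at 2.40 ± 0.57 CPM per kb, PTK2B at 1.67 ± 0.44 and CAMKK1 at 1.23 ± 0.22 were the lowest, and CAMK2B exceeded PTK2B in 15 of 16 libraries. CAMK2A, the other CaMKII gene, reached at most 1.96 CPM in any library.

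**Figure D1:**
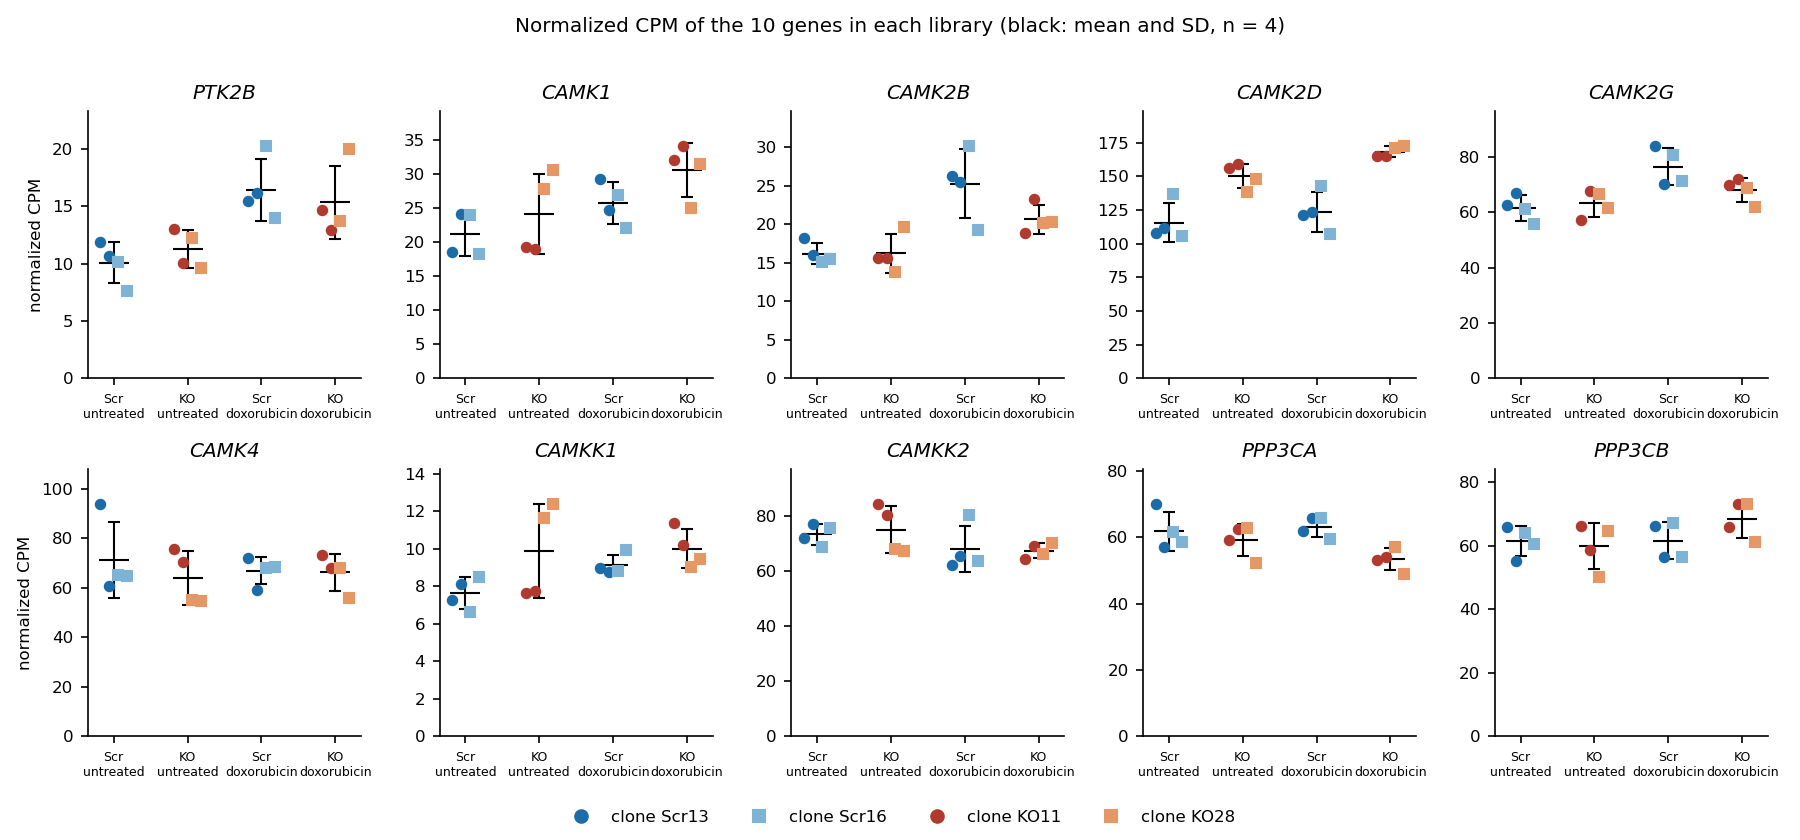
Normalized CPM (vertical axes, linear from 0) of the 10 genes in each of the 16 libraries, by group; each point is a library, colour and shape give the clone, and black marks give the mean and SD of 4 libraries. CAMK2D lies at 139 to 172 CPM in all 8 libraries labelled KO, while the Scr libraries reach at most 137 CPM untreated and 143 CPM after doxorubicin.

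The first comparison asked whether the transcripts of these enzymes differed between libraries labelled KO and Scr libraries. CAMK2D (ENSG00000145349, chromosome 4, 113451032 to 113761927, minus strand), which encodes CaMKII delta, was higher in the libraries labelled KO, both without treatment and after doxorubicin. None of the other 9 genes passed the threshold in either condition.

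Without treatment, CAMK2D was at 156 and 159 CPM in clone KO11 and at 139 and 148 CPM in clone KO28. In Scr cells it was at 108 and 112 CPM in clone Scr13 and at 137 and 106 CPM in clone Scr16. Every library labelled KO lay above every Scr library, but the gap was narrow, between 139 CPM in KO28 replicate 1 and 137 CPM in Scr16 replicate 1. The means were 150.3 ± 9.12 and 116 ± 14.3 CPM (SD, n = 4), a difference of 30.1%. The log2 fold change was 0.38 (SE 0.084, 95% confidence interval 0.21 to 0.56, limma adjusted p = 0.00782). Of 14364 genes tested, 4.84% passed the threshold, against 1 of the 10, and the groups did not overlap in 9.29% of all genes tested, again against 1 of the 10. The call was lost without clone KO11 (limma adjusted p = 0.0819), without clone Scr13 (limma adjusted p = 0.202) and without the filter on low values (limma adjusted p = 0.0725).

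After doxorubicin, CAMK2D was at 165 CPM in both KO11 libraries and at 171 and 172 CPM in the KO28 libraries. The Scr libraries held 121 and 124 CPM in clone Scr13 and 143 and 107 CPM in clone Scr16. The groups were again separate, with 165 CPM the lowest in libraries labelled KO and 143 CPM the highest in Scr. The means were 168 ± 3.80 CPM (SD, n = 4) and 124 ± 14.7 CPM (SD, n = 4). The difference was 36.1%, with a log2 fold change of 0.45 (SE 0.083, 95% confidence interval 0.28 to 0.62, limma adjusted p = 0.000880). The call held in all 20 alternatives, among them each clone left out. Of 14572 genes tested after doxorubicin, 8.69% passed the threshold, against 1 of the 10. Both comparisons use libraries of the same 4 clones.

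Doxorubicin did not bring CAMK2D past the threshold in either genotype. The log2 fold change with treatment was 0.095 (SE 0.086, limma adjusted p = 0.543) in Scr and 0.17 (SE 0.086, limma adjusted p = 0.201) in libraries labelled KO. The interaction of genotype and treatment was 0.072 (95% confidence interval -0.18 to 0.32, limma adjusted p = 0.945). CAMK2D was higher in the libraries labelled KO in both conditions, and a difference in size between the conditions was not detected.

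Markers of a mesenchymal state, which SH-SY5Y cultures can hold beside the adrenergic state, moved with genotype as well. Of 8 markers 7 were matched, and 4 of the 7 tested without treatment were higher in the libraries labelled KO and 1 was lower. VIM, the intermediate filament vimentin, had a log2 fold change of 1.10 (SE 0.23), FN1 (fibronectin) 1.55 (SE 0.27), COL1A1 (a collagen I chain) 1.52 (SE 0.31), YAP1 (a Hippo pathway coactivator) 1.91 (SE 0.29) and TWIST1 (a transcription factor) -0.53 (SE 0.077). After doxorubicin the same 5 genes passed in the same directions, of 6 tested. The summed level of the 7 was 763 and 714 CPM in untreated KO11, 917 and 873 CPM in KO28, 749 and 416 CPM in Scr13 and 505 and 556 CPM in Scr16. After doxorubicin it was 882 and 706 CPM in KO11, 977 and 813 CPM in KO28, 504 and 437 CPM in Scr13 and 645 and 591 CPM in Scr16. VIM was the most abundant in the libraries labelled KO and TWIST1 in 7 of the 8 Scr libraries, and 1 of the 7 markers was at 0 in replicate 1 of both treated Scr clones. In bulk RNA, fewer cells of a type and less RNA per cell cannot be told apart, and the part of these markers in the CAMK2D difference was not tested.

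Adrenergic markers were present in all libraries, with at most 1 of the 10 at 0 in a library, and their sum overlapped between genotypes, at 6033 to 7169 CPM in untreated libraries labelled KO and 5883 to 6876 CPM in Scr. Of 9 tested, 2 were higher and 1 was lower in libraries labelled KO without treatment, and 1 was higher and 1 lower after doxorubicin. Among them GATA3, a transcription factor of sympathetic neurons, was higher without treatment (log2 fold change 0.32, SE 0.086), a call that held in 10 of 20 alternatives. Of 4 immune markers only LYZ was matched, and it was at 0 in all untreated libraries and at most 0.192 CPM after doxorubicin.

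Calcineurin showed a difference after doxorubicin that fell short of the threshold. PPP3CA (ENSG00000138814, chromosome 4, 101023409 to 101348278, minus strand), the catalytic subunit A alpha, was at 53.2 and 54.2 CPM in clone KO11 and at 57.0 and 49.1 CPM in clone KO28 after doxorubicin. The Scr libraries held 61.8 and 65.9 CPM in clone Scr13 and 65.8 and 59.6 CPM in clone Scr16. The groups did not overlap, which was so for 2 of the 10 genes and for 13.2% of all genes tested in this comparison. The log2 fold change was -0.24 (SE 0.090, 95% confidence interval -0.43 to -0.055, limma adjusted p = 0.112), and none of 20 alternatives brought it past the threshold. PPP3CB, the catalytic subunit A beta, was at 68.4 ± 5.85 CPM in the libraries labelled KO and 61.7 ± 5.89 CPM in Scr (SD, n = 4), with a log2 fold change of 0.15 (95% confidence interval -0.051 to 0.35, limma adjusted p = 0.428). Without treatment neither gene passed, with log2 fold changes of -0.061 for PPP3CA and -0.039 for PPP3CB. PPP3CB shares exon bases with PPP3CB-AS1 on the opposite strand, which was at a median of 1.47 CPM.

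For the upstream kinases and their substrates CAMK1 and CAMK4, the libraries of the clones labelled KO lay apart from each other in untreated cells. CAMKK1 was at 7.66 and 7.77 CPM in KO11 and at 11.7 and 12.4 CPM in KO28, while the 4 Scr libraries lay between 6.63 and 8.52 CPM. CAMK1 followed the same order, at 19.3 and 18.9 CPM in KO11 and 27.8 and 30.5 CPM in KO28. CAMK4 had the opposite order, at 75.9 and 70.3 CPM in KO11 and 55.1 and 54.6 CPM in KO28. CAMKK2 did too, at 84.4 and 80.5 CPM in KO11 and 67.9 and 67.4 CPM in KO28. The 4 untreated Scr libraries lay between 18.3 and 24.1 CPM for CAMK1 and between 60.6 and 94.0 CPM for CAMK4. For CAMKK2 they lay between 68.6 and 77.1 CPM. CAMK2D separated the clones labelled KO as well, at 156 and 159 CPM in KO11 and 139 and 148 CPM in KO28. Full separation of 2 libraries from 2 is frequent by chance, and its share over all genes was not computed. CAMKK1, CAMK1, CAMK4 and CAMKK2 were singled out after their values were seen. The difference between clones of one genotype rests on 2 libraries each and was not tested. After doxorubicin CAMKK1 was at 11.4 and 10.2 CPM in KO11 and at 9.03 and 9.45 CPM in KO28. Its order between the clones was thus turned. The order of CAMK1 was turned too, at 32.0 and 34.1 CPM in KO11 and 24.9 and 31.5 CPM in KO28. CAMK4 kept its order, at 73.3 and 68.1 CPM in KO11 and 68.0 and 55.9 CPM in KO28. For CAMKK2 the clones overlapped, at 64.3 and 69.0 CPM in KO11 and 66.3 and 70.1 CPM in KO28. The confidence intervals of the genotype differences were wide for the low genes. The log2 fold change of CAMKK1 without treatment was 0.31 (95% confidence interval -0.098 to 0.71, limma adjusted p = 0.535), and that of PTK2B was 0.15 (95% confidence interval -0.22 to 0.52, limma adjusted p = 0.796). For CAMKK2, the upstream kinase that also activates AMPK, the interval ran from -0.16 to 0.21 without treatment and from -0.20 to 0.19 after doxorubicin. Over the 10 genes the median log2 fold change was 0.032 without treatment and -0.011 after doxorubicin, against -0.0073 and 0.014 over all genes tested.

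**Figure D2:**
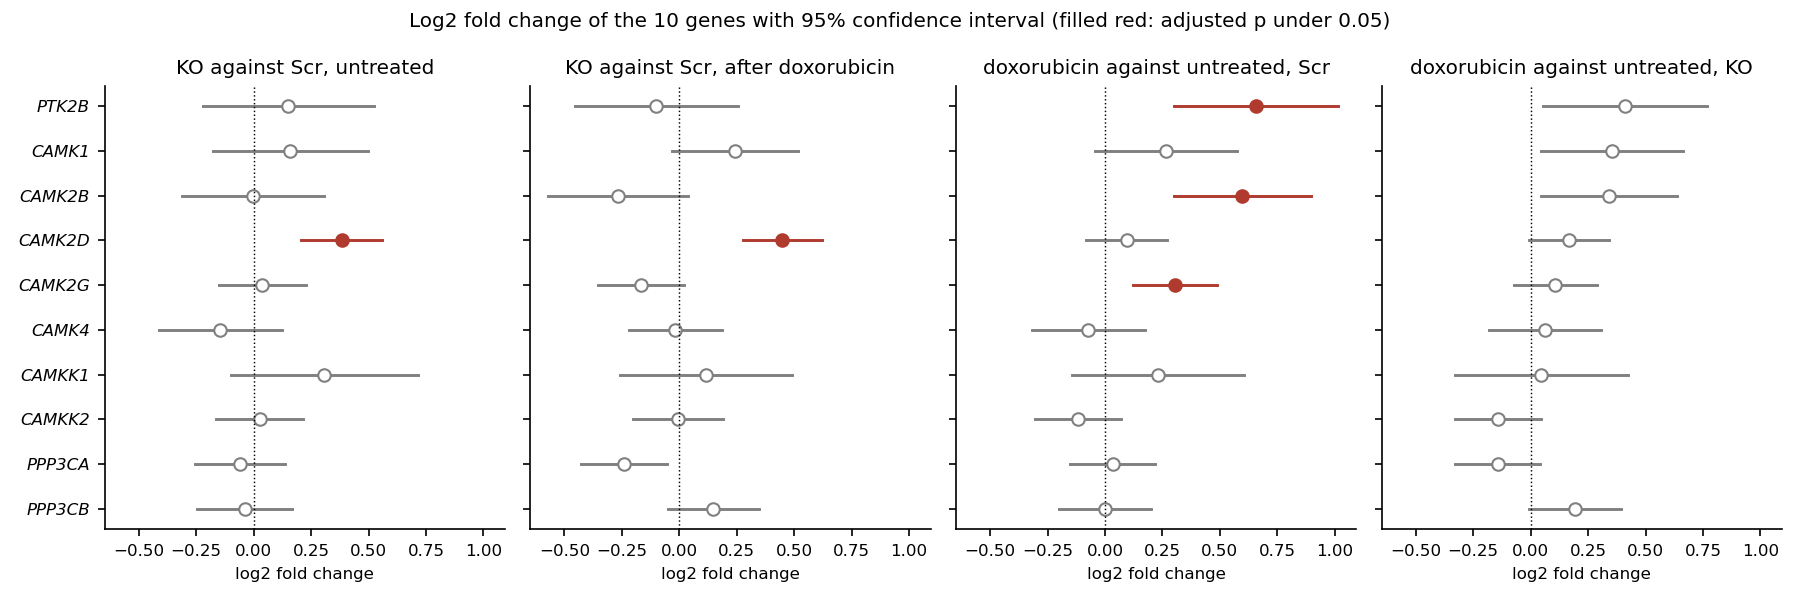
Log2 fold change (horizontal axes) of each of the 10 genes in 4 comparisons, with lines for the 95% confidence interval; red filled points passed an adjusted p of 0.05 and open points did not. Only CAMK2D passed between genotypes, and PTK2B, CAMK2B and CAMK2G passed with doxorubicin in Scr.

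CaMKII holoenzymes are assembled from the products of several genes, so the composition of the CAMK2 transcripts was compared as shares of the summed CPM per kb of CAMK2B, CAMK2D and CAMK2G. After doxorubicin, CAMK2D made up 64.5% ± 1.82 (SD, n = 4) in the libraries labelled KO, from 62.5% to 66.9%. In the Scr libraries it made up 53.8% ± 2.01 (SD, n = 4), from 51.3% to 55.5%. The groups did not overlap, and the difference was 10.7 percentage points (exact two-sided permutation test, p = 0.0286, the smallest that 4 against 4 allow). CAMK2G differed by -7.97 points, at 28.3% ± 1.61 against 36.3% ± 2.51, and CAMK2B was at 7.14% ± 0.59 against 9.88% ± 0.88 (SD, n = 4), each with an exact p = 0.0286. Without treatment CAMK2D made up 64.3% ± 2.15 in the libraries labelled KO and 58.5% ± 3.23 in Scr (SD, n = 4), and the groups overlapped (exact permutation p = 0.0571). Of the summed CPM per kb of PPP3CA and PPP3CB, PPP3CA held 43.3% ± 0.96 in the libraries labelled KO and 50.1% ± 2.43 in Scr after doxorubicin (SD, n = 4, exact permutation p = 0.0286). Without treatment it held 49.2% ± 4.81 and 49.6% ± 1.21 (SD, n = 4, exact permutation p = 0.943). PPP3CC was left out of these shares. Its means were 4.89 CPM per kb in libraries labelled KO and 4.37 in Scr after doxorubicin, and 4.21 and 5.43 without treatment. Adjusted by Benjamini-Hochberg over the 8 share tests, the smallest permutation p-values became 0.0571, so no share passed 0.05. The shares of one family sum to 100%, and so are not independent of each other or of the CPM above.

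**Figure D3:**
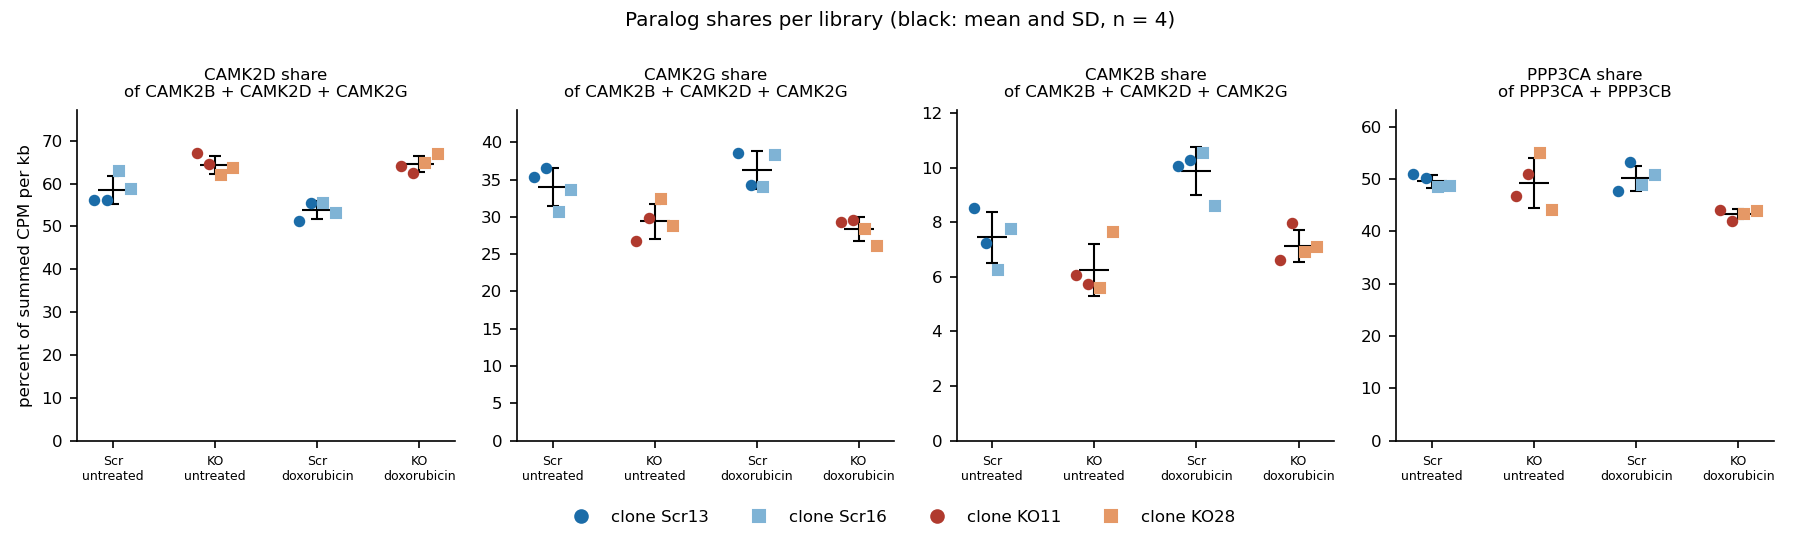
Share (percent, vertical axes from 0) of CAMK2D, CAMK2G and CAMK2B in their summed CPM per kb, and of PPP3CA in that of PPP3CA and PPP3CB; each point is a library, colour and shape give the clone, and black marks give the mean and SD of 4 libraries. After doxorubicin the CAMK2D share is 62.5% to 66.9% in libraries labelled KO and 51.3% to 55.5% in Scr libraries.

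The next question was how the transcripts of these enzymes responded to doxorubicin. In Scr cells 3 of the 10 genes rose, namely PTK2B, CAMK2B and CAMK2G, and none fell past the threshold. In this comparison 11.5% of 15325 genes tested passed the threshold, and 6.41% passed with a higher level after doxorubicin.

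PTK2B (ENSG00000120899, chromosome 8, 27311482 to 27459391, plus strand), the gene for PYK2, was at 11.9 and 10.7 CPM in untreated Scr13 and at 10.1 and 7.61 CPM in untreated Scr16. After doxorubicin it was at 15.4 and 16.2 CPM in Scr13 and at 20.2 and 13.96 CPM in Scr16. All treated Scr libraries lay above all untreated ones, with means of 16.4 ± 2.69 and 10.1 ± 1.80 CPM (SD, n = 4). The log2 fold change was 0.66 (SE 0.18, 95% confidence interval 0.30 to 1.01, limma adjusted p = 0.0120), and it was not past the threshold without untreated Scr16 replicate 2 (limma adjusted p = 0.0634).

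CAMK2B (ENSG00000058404, chromosome 7, 44217150 to 44334577, minus strand), which encodes the CaMKII beta subunit that binds actin, was at 18.1 and 16.0 CPM in untreated Scr13 and at 15.04 and 15.5 CPM in untreated Scr16. After doxorubicin it reached 26.3 and 25.4 CPM in Scr13 and 30.1 and 19.2 CPM in Scr16. The groups did not overlap, with means of 25.3 ± 4.52 and 16.2 ± 1.38 CPM (SD, n = 4) and a log2 fold change of 0.60 (SE 0.15, 95% confidence interval 0.30 to 0.89, limma adjusted p = 0.00593).

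CAMK2G (ENSG00000148660, chromosome 10, 73812501 to 73874591, minus strand), which encodes CaMKII gamma, was at 62.5 and 66.9 CPM in untreated Scr13 and at 61.3 and 55.6 CPM in untreated Scr16. It rose to 83.9 and 70.2 CPM in Scr13 and to 80.7 and 71.1 CPM in Scr16. The change was smaller than for CAMK2B on the log2 scale, at 0.30 (SE 0.089, 95% confidence interval 0.12 to 0.49, limma adjusted p = 0.0230). It held in 5 of the 8 fits without 1 library, and was lost without treated Scr13 replicate 1 (limma adjusted p = 0.0903), untreated Scr16 replicate 2 (limma adjusted p = 0.0945) or treated Scr16 replicate 1 (limma adjusted p = 0.0553), the last being the library with the fewest reads. An antisense gene shares exon bases with CAMK2G, and strand use in counting is not given in the sources used here. With either Scr clone left out, none of the 3 genes passed.

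In libraries labelled KO, none of the 10 genes passed the threshold with doxorubicin, although 16.6% of 15325 genes did. The count was 0 with limma, edgeR and DESeq2, and 3 genes had an unadjusted p under 0.05 with each tool. PTK2B went from 11.2 ± 1.65 to 15.3 ± 3.16 CPM (SD, n = 4), a log2 fold change of 0.41 (95% confidence interval 0.054 to 0.77, limma adjusted p = 0.112). Its highest untreated library (KO11 replicate 1) and lowest treated library (KO11 replicate 2) crossed slightly in CPM as deposited and did not overlap under one scaling of all 16 libraries. CAMK2B went from 16.2 ± 2.48 to 20.6 ± 1.88 CPM (SD, n = 4), a log2 fold change of 0.34 (95% confidence interval 0.044 to 0.64, limma adjusted p = 0.112). CAMK1, the third gene, had a log2 fold change of 0.35 (95% confidence interval 0.045 to 0.66, limma adjusted p = 0.112), with 19.3 and 18.9 CPM in untreated and 32.0 and 34.1 CPM in treated KO11, but 27.8 and 30.5 CPM in untreated and 24.9 and 31.5 CPM in treated KO28. The groups of CAMK1 overlapped through clone KO28. CAMK1 shares exon bases with OGG1 on the opposite strand, which was at a median of 25.5 CPM. Without untreated KO28 replicate 2, CAMK1 (limma adjusted p = 0.0345) and CAMK2B (limma adjusted p = 0.0462) passed, and without clone KO28 CAMK1 did (limma adjusted p = 0.0106).

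That 3 genes passed in Scr and none in libraries labelled KO does not show that the responses differed. No interaction passed for the 10 genes with limma, edgeR or DESeq2, and none had an unadjusted p under 0.05. The interactions ran from -0.26 for CAMK2B (95% confidence interval -0.68 to 0.16) to 0.19 for PPP3CB (95% confidence interval -0.089 to 0.48), and that of CAMK2G was -0.20 (95% confidence interval -0.45 to 0.060, limma adjusted p = 0.768). Of all genes tested, 0.0196% passed for interaction, namely TP53I3, SLIT1 and CXCL12. Counted by groups that did not overlap between treated and untreated libraries, PTK2B, CAMK2B, CAMK2G and CAMKK1 were separate in Scr, or 4 of 10 against 16.5% of all genes. PTK2B and CAMK2D were separate in libraries labelled KO, or 2 of 10 against 19% of all genes. The median log2 fold change of the 10 genes with doxorubicin was 0.16 in Scr and 0.14 in libraries labelled KO, against -0.015 and 0.021 over all genes tested.

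Promoter sequence is printed for the CAMK2 genes, since 2 of them rose together with doxorubicin in Scr and the third differed by genotype. The stretches come from RefSeq promoters of GRCh38.p14, run 5′ to 3′ on the gene's strand, and stop at the first base of the window that GENCODE release 29 places in an exon of the gene. The CAMK2B stretch lies within the annotated gene, outside its exons, while those of CAMK2G and CAMK2D end just before the annotated gene. Capitals mark the GC box GGGCGG on either strand.
CAMK2B, chr7:44325657-44325844, minus strand: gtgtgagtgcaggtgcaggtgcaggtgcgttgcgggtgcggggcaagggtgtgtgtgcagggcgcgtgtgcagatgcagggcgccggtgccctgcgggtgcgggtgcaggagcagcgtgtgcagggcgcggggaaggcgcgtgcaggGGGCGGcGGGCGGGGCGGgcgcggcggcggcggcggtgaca
CAMK2G, chr10:73874592-73874805, minus strand: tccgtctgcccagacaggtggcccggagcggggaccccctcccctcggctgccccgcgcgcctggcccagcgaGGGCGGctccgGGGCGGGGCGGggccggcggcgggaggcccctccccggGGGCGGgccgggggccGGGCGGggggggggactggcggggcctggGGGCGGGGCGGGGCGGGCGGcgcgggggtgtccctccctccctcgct
CAMK2D, chr4:113761928-113761988, minus strand: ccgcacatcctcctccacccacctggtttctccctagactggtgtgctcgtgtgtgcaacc
In the 250 bases before the RefSeq start, CAMK2G held 9 GC boxes, some overlapping, CAMK2B held 3 and CAMK2D held none, while 42.6% of 35116 promoters held at least 1. G and C made up 84.8%, 78.4% and 67.6% of these 3 windows, against a median of 58% over all promoters. CAMKK2 held 8 GC boxes and CAMKK1 held 4, and neither gene passed in any comparison. A link between GC boxes and transcript changes was not tested. The cyclic AMP response element TGACGTCA, bound by CREB, its half-site TGACG and the NFAT core GGAAA were searched on both strands in the same windows, as was the CCAAT box CCAAT. None of these 4 was present in the CAMK2 windows, against 1.6%, 21.2%, 55.6% and 32% of all promoters. The half-site lies within the full element. Promoters of PTK2B, PPP3CA and PPP3CB were not matched. Of the 7 genes of the set searched, GC boxes were in 5, a CCAAT box in 3 (CAMK1, CAMKK1 and CAMKK2) and the NFAT core in 1 (CAMKK2).

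The wider calcium and calmodulin pathway was followed in 52 further genes, of which 46 were tested. Without treatment 1 was higher and 2 were lower in libraries labelled KO, where 4.84% of all genes passed, and after doxorubicin 1 was higher and 3 were lower, where 8.69% did. With doxorubicin 3 rose and 6 fell in Scr, against 11.5% of all genes, and 3 rose and 5 fell in libraries labelled KO, against 16.6%. The fits were repeated under 20 alternatives for each genotype comparison and 19 for each doxorubicin comparison, and the number in which a call held is given with each gene. No interaction passed with limma.

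Among calmodulin genes and calmodulin buffers, 2 of 6 were lower in untreated libraries labelled KO. GAP43, a growth cone protein that binds calmodulin, was at 114 ± 13.3 against 145 ± 11.95 CPM without treatment and at 90.4 ± 4.11 against 116 ± 16.3 CPM after doxorubicin (SD, n = 4), with log2 fold changes of -0.35 (SE 0.088, limma adjusted p = 0.0205) and -0.35 (SE 0.092, limma adjusted p = 0.0168). These calls held in 13 and 11 of 20 alternatives. With doxorubicin GAP43 fell by 0.33 in Scr and by 0.33 in libraries labelled KO on the log2 scale, in 15 and 16 of 19 alternatives. MARCKS, which sequesters calmodulin at the membrane, fell by 0.44 (SE 0.071) in Scr and by 0.54 (SE 0.071) in libraries labelled KO, with limma adjusted p-values of 5.9e-05 and 1.8e-06, and both calls held in all 19 alternatives.

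Of 14 other kinases and CaMKII inhibitors tested, CAMK1D, a second CaMKI gene, was higher in untreated libraries labelled KO, at 74.7 ± 6.62 against 57.5 ± 1.86 CPM (SD, n = 4). Its log2 fold change was 0.37 (SE 0.087, limma adjusted p = 0.0130, held in 16 of 20), and with doxorubicin it fell by 0.30 (SE 0.092, limma adjusted p = 0.0205, held in 13 of 19) in libraries labelled KO. In Scr, PNCK (CaMKI beta) rose with doxorubicin by 0.75 (SE 0.23, limma adjusted p = 0.0339, held in 11 of 19) and CAMK2N2, a CaMKII inhibitor, by 0.41 (SE 0.12, limma adjusted p = 0.0299, held in 12 of 19). Of 9 calcineurin partners and inhibitors tested, with PPP3CC counted among them, none passed between genotypes. AKAP5, the scaffold that anchors calcineurin, fell by 0.66 (SE 0.17, limma adjusted p = 0.01005, held in 17 of 19) and PPIA (cyclophilin A) by 0.36 (SE 0.071, limma adjusted p = 0.000925, held in 18 of 19) with doxorubicin in Scr. RCAN1, a calcineurin inhibitor that NFAT induces, was at 14.04 ± 1.73 and 15.2 ± 0.54 CPM without treatment and 16.5 ± 2.07 and 13.5 ± 2.97 CPM after doxorubicin in libraries labelled KO and in Scr (SD, n = 4), and passed in no comparison.

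Of 17 targets tested, none passed between genotypes without treatment. After doxorubicin SRC, the tyrosine kinase that PYK2 recruits, was higher in libraries labelled KO at 251 ± 29.2 against 181 ± 22.5 CPM (SD, n = 4), a log2 fold change of 0.47 (SE 0.094, limma adjusted p = 0.00175, held in 19 of 20). HDAC9, a class IIa deacetylase of the kind CaMKs phosphorylate, was lower (-0.35, SE 0.072, limma adjusted p = 0.00242, held in 19 of 20). TFEB, a lysosomal transcription factor that calcineurin dephosphorylates, had a log2 fold change of -0.70 (SE 0.21, limma adjusted p = 0.0361), and this call held in only 9 of 20 alternatives, with adjusted p-values up to 0.283. With doxorubicin in libraries labelled KO, SRC rose by 0.55 (SE 0.089, held in 18 of 19) and PXN (paxillin, a PYK2 substrate) by 0.32 (SE 0.097, held in 12 of 19), while HDAC9 fell by 0.39 (SE 0.071, held in 18 of 19) and STMN1 (stathmin, a CaMK substrate) by 0.25 (SE 0.071, held in 15 of 19). MEF2D, a transcription factor, had a log2 fold change of 0.26 (SE 0.092, limma adjusted p = 0.0452), which held in only 8 of 19 and was past the threshold with neither edgeR nor DESeq2. In Scr, STMN1 fell by 0.30 (SE 0.071, held in 17 of 19). PXN in Scr had a log2 fold change of 0.30 (SE 0.097, limma adjusted p = 0.0397, held in 11 of 19) and HDAC9 one of -0.23 (SE 0.071, limma adjusted p = 0.0345, held in 9 of 19).

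**Figure D4:**
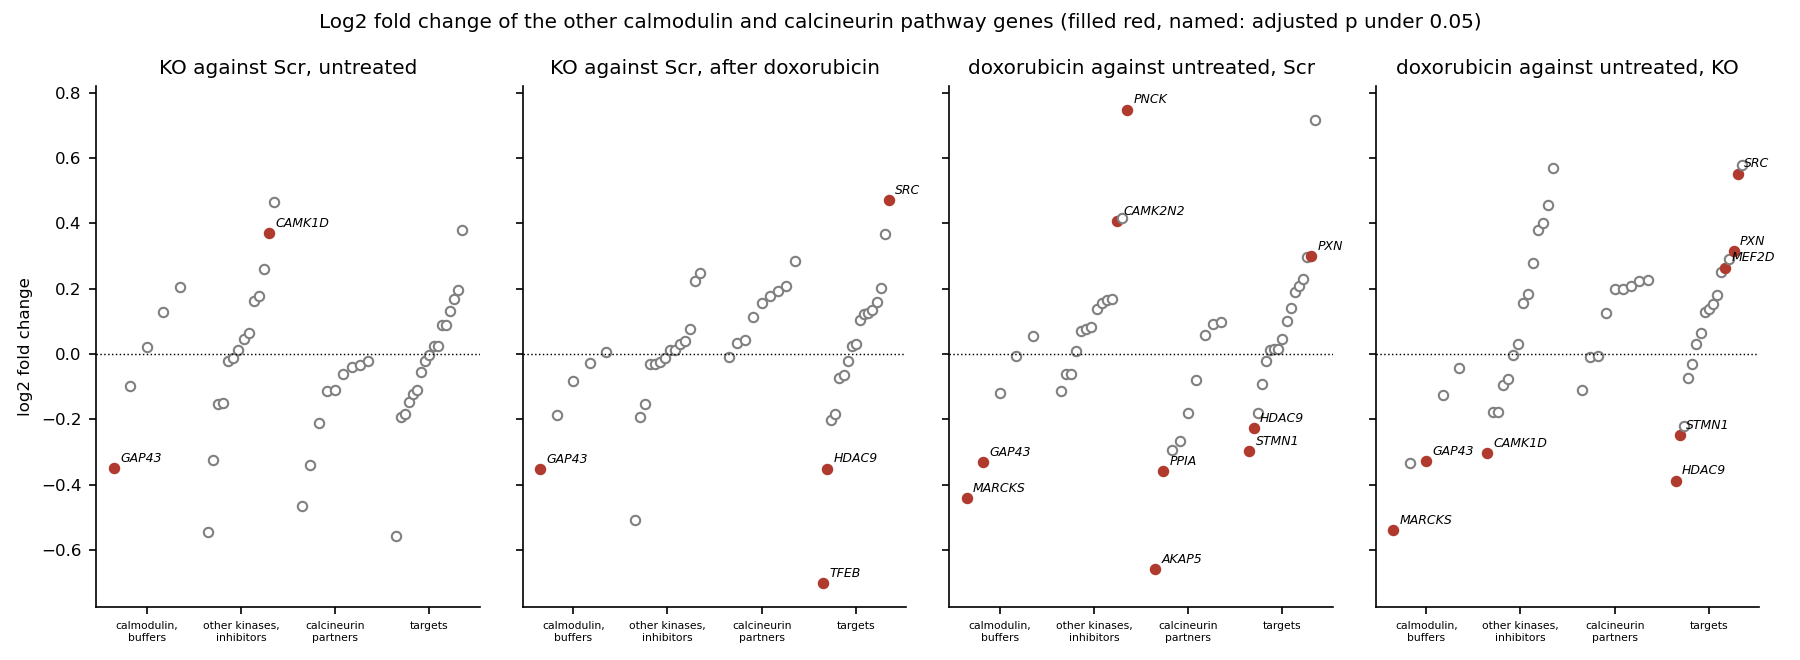
Log2 fold change (vertical axis) of the further pathway genes tested and reported here, in 4 comparisons, grouped by list along the horizontal axis and ordered by value within a list; red filled and named points passed an adjusted p of 0.05. GAP43 is lower in both genotype comparisons and with doxorubicin in both genotypes.

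Genes whose pattern over the 16 libraries was most like that of a gene that passed were found by Pearson correlation of log2(CPM + 1) with 15324 other genes, as a description of libraries that share clones and treatments. For CAMK2D these were PTN (r = 0.90), SERPINE2 (r = 0.90) and GLDC (r = 0.89). For PTK2B they were KDM3A (r = 0.90), AC092171.5 (r = 0.88) and RAB6B (r = 0.87). CAMK2B was most like LINC00589 (r = 0.91), ERBB2 (r = 0.91) and JAK3 (r = 0.91), and CAMK2G most like CEBPB (r = 0.89), ZNF275 (r = 0.84) and CDK19 (r = 0.84).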

How the data were processed

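SH-SY5Y RNA was sequenced as poly(A) directional libraries. Submitters' processing notes name HISAT2 2.1.0, HTSeq, edgeR and GRCh38. The deposited signal values are CPM that the authors normalized, in a table of 8 untreated and a table of 8 treated libraries. The tables' own fold changes, p-values, q-values and ranks were not used. Whole reads were recovered from the CPM steps (100% of values within 0.01 of a whole read). The authors' scaling factors differed by at most 1.02% from one TMM scaling over all 16 libraries.

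Symbols were matched for 25317 of 26410 genes (GENCODE release 29). Genes at 1 CPM or more in at least 4 libraries were tested with limma 3.58.1 (trend) on log2(CPM + 1), adjusted by Benjamini-Hochberg, with a threshold of 0.05. Fold changes are on this scale, which understates those of low genes. KO and Scr were compared within each table. Doxorubicin and the interaction were tested over 16 libraries with one TMM scaling, and printed CPM are as deposited. Alternatives were edgeR 4.0.16 and DESeq2 1.42.0 on recovered reads, other filters, pseudocounts and scalings, clone and replicate terms, and each library or clone left out. The fits were also run on counts simulated with the same spread for all genes and without differences between clones. That run cannot show how clone differences affect the calls. No pair of libraries from a clone looked like repeats of one library (chi-square per gene from 7.45 to 15.6). Whether they were separate cultures is not detailed beyond being called biological replicates, so p-values measure the spread between these libraries.

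The 10 genes and all lists were chosen with earlier results of these data known. Named were all 10 genes, TRPM2, CDKN1A, MDM2, up to 6 genes a list and comparison past the threshold, and the 3 genes most like each of the 10 that passed. Some genes of the lists that passed are not reported here by name.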

Additional observations from a re-analysis of the deposited data

Results flagged for a closer look

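Of 40 pairs of a gene and a group, 1 held a library far from the other 3, where chance would set apart about 1 in 20. CAMK4 was at 94.0 CPM in untreated Scr13 replicate 1, against 60.6, 65.2 and 64.9 CPM in the other untreated Scr libraries. That library had the most reads on genes, 25086085.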

How the results depend on the processing

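CAMK2D after doxorubicin passed in all 20 alternatives, and the 3 genes that rose in Scr passed with edgeR, DESeq2, the lower pseudocount, no filter and every scaling tried. Leaving out either Scr clone ended the calls of those 3 genes, and leaving out 2 of the 4 clones in turn that of CAMK2D without treatment, with 2 libraries then setting a group. Without treatment, the number of the 10 genes that passed was 0 without the filter, without clone KO11 and without clone Scr13, and the number of all genes that passed was 368 without the filter, 330 without clone Scr13 and 327 without clone Scr16, against 695. After doxorubicin all genes that passed numbered 510 without clone KO11 and 575 without clone KO28, against 1266. With doxorubicin in Scr none of the 10 passed without Scr13 or without Scr16, and all genes that passed numbered 449 and 759, against 1755. In libraries labelled KO, 1 of the 10 (CAMK1) passed without clone KO28, and all genes that passed numbered 844 without clone KO11 and 1291 without clone KO28, against 2547. For the interaction, 5 genes passed without the filter, 31 with DESeq2, 5 with clone as a fixed block, 5 without clone Scr13, 1 without clone KO28 and 0 without KO11 or without Scr16, against 3. The cause of the shift without the filter and with DESeq2 was not tested.

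With each library left out in turn, all genes that passed ranged from 508 to 678 without treatment, 814 to 1314 after doxorubicin, 1251 to 1930 with doxorubicin in Scr, 1875 to 2495 in libraries labelled KO and 1 to 6 for the interaction. Of the 10 genes, 1 to 3 passed in Scr, the lowest without untreated Scr16 replicate 2, and 0 to 2 in libraries labelled KO, the highest without untreated KO28 replicate 2. The difference in PPP3CA share without treatment ranged from -2.30 to 1.34 percentage points, so its direction was not determined.

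Within a treatment, same-numbered replicates of different clones did not deviate together (correlations from -0.101 to 0.12), so the numbers showed no pairing between clones. Whether they pair untreated with treated libraries of a clone was not tested. With a replicate block, 697, 1365, 1873, 2649 and 7 genes passed in the 5 comparisons, and the call of each of the 10 genes was as without it.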
